A study of Mus musculus with 28 samples.

Results

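Eno1b, Ccl27a, Vmn2r29, Tagap, Aox4, Gm8801 and Mcm6 are 7 genes, of 24062 counted, whose RNA was scarce in the hippocampus of vehicle-treated 3xTg mice relative to WT mice. They were chosen on measured values, as the named genes among the largest falls in vehicle-treated 3xTg libraries against vehicle-treated WT libraries, so their difference with vehicle is a description and carries no test. The libraries treated with drug took no part in that choice, and the tests below rest on those. In them 6 of the genes were again lower over both drugs, whereas Gm8801 was not called and with NAVI had a higher fitted level in 3xTg. All 7 genes passed the filter on low counts, which left 16369 genes in the fit. None of the 7 was at 0 throughout in 3xTg, and Mcm6, with 120 counts or more in each 3xTg library, was reduced rather than lost.

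Hippocampi of female mice gave 28 libraries in 7 groups of 4. The 3xTg line carries mutant human APP and MAPT transgenes driven by a Thy1 promoter cassette, on a mixed background. The 3xTg groups received navitoclax (NAVI, also called ABT263, a BCL-2 family inhibitor), dasatinib with quercetin (DQ), or one of 2 vehicles labelled VehN and VehD. The WT groups, labelled BL6/129, received NAVI, DQ or a vehicle labelled Veh. Both drug treatments are senolytics, compounds used to kill senescent cells. The labels name neither age nor dose. Nothing in the labels says that each library is a different mouse, so the p-values rest on the spread among libraries, which may be technical. The labels do not say how the WT mice relate to the 3xTg colony, so the transgenes, the line and its background cannot be told apart in any comparison of 3xTg with WT.

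Total counts ran from 32080861 to 54019519 per library. All 10 hippocampal neuron markers were detected, with summed levels of 580 to 815 CPM (counts scaled to library size) in 3xTg libraries and 629 to 858 CPM in WT libraries. App, whose mouse gene can also take reads from the human transgene, stood at 2410 to 3805 CPM in 3xTg libraries and 1470 to 1800 CPM in WT libraries. The labels and the App level therefore split the libraries in the same way. Microglia markers summed to 511 to 794 CPM in 3xTg libraries and 390 to 500 CPM in WT libraries, ranges that do not overlap. Over both drugs, 9 of 12 microglia markers, 3 of 6 astrocyte markers and 1 of 6 oligodendrocyte markers were higher in 3xTg, and 1 of 10 hippocampal neuron markers was lower (edgeR). Choroid plexus markers summed to 78.9 to 5951 CPM in 3xTg and 92.6 to 5162 CPM in WT libraries. None of these 10 and none of 12 thalamus and habenula markers was called with edgeR, DESeq2 or limma-voom, with 0 and 2 at an unadjusted p under 0.05. The part of cell makeup in the results below was not tested. In bulk tissue, fewer cells of a type and less RNA per cell cannot be told apart.

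The 7 genes have unlike functions. Eno1b is a retrotransposed copy of the glycolytic enzyme gene Eno1, and Ccl27a encodes a chemokine that attracts lymphocytes to skin through the receptor CCR10. Vmn2r29 belongs to the vomeronasal pheromone receptors, and Tagap encodes a GTPase activating protein known from activated T cells. Aox4 encodes an aldehyde oxidase, a molybdenum-dependent enzyme known mainly from epithelia and glands. Mcm6 encodes a subunit of the MCM2-7 helicase, which unwinds DNA at replication forks. Gm8801 is annotated as a transcribed pseudogene. Several of them belong to gene families in which near-identical copies lie side by side or elsewhere in the genome.

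In the RefSeq annotation of GRCm38.p6, Eno1b lies at chr18:48045335-48048379 and Ccl27a at chr4:41769467-41774225. Vmn2r29 lies at chr7:7212996-7278289 and Aox4 at chr1:58210397-58268600. Tagap, at chr17:7926000-7934897, and Gm8801, at chr17:35947154-35953317, share a chromosome. Mcm6, at chr1:128331575-128359705, shares one with Aox4. The 7 genes thus fall at separate places, and no pair of them lies next to each other.

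Across the genotypes the levels of the 7 genes fell into 2 patterns. For Ccl27a, Vmn2r29, Tagap and Mcm6, all 16 3xTg libraries lay below all 12 WT libraries. For Eno1b, Aox4 and Gm8801 the ranges overlapped, and 10, 8 and 5 of the 12 WT libraries lay above the highest 3xTg library. These counts and the 2 patterns include the vehicle libraries that chose the genes. They are a description, with no share over all genes beside them. With the drug-treated libraries alone, which took no part in the choice, the same 4 of the 7 had all 8 3xTg libraries below all 8 WT libraries, as had 0.507% of all genes tested.

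**Figure D1:**
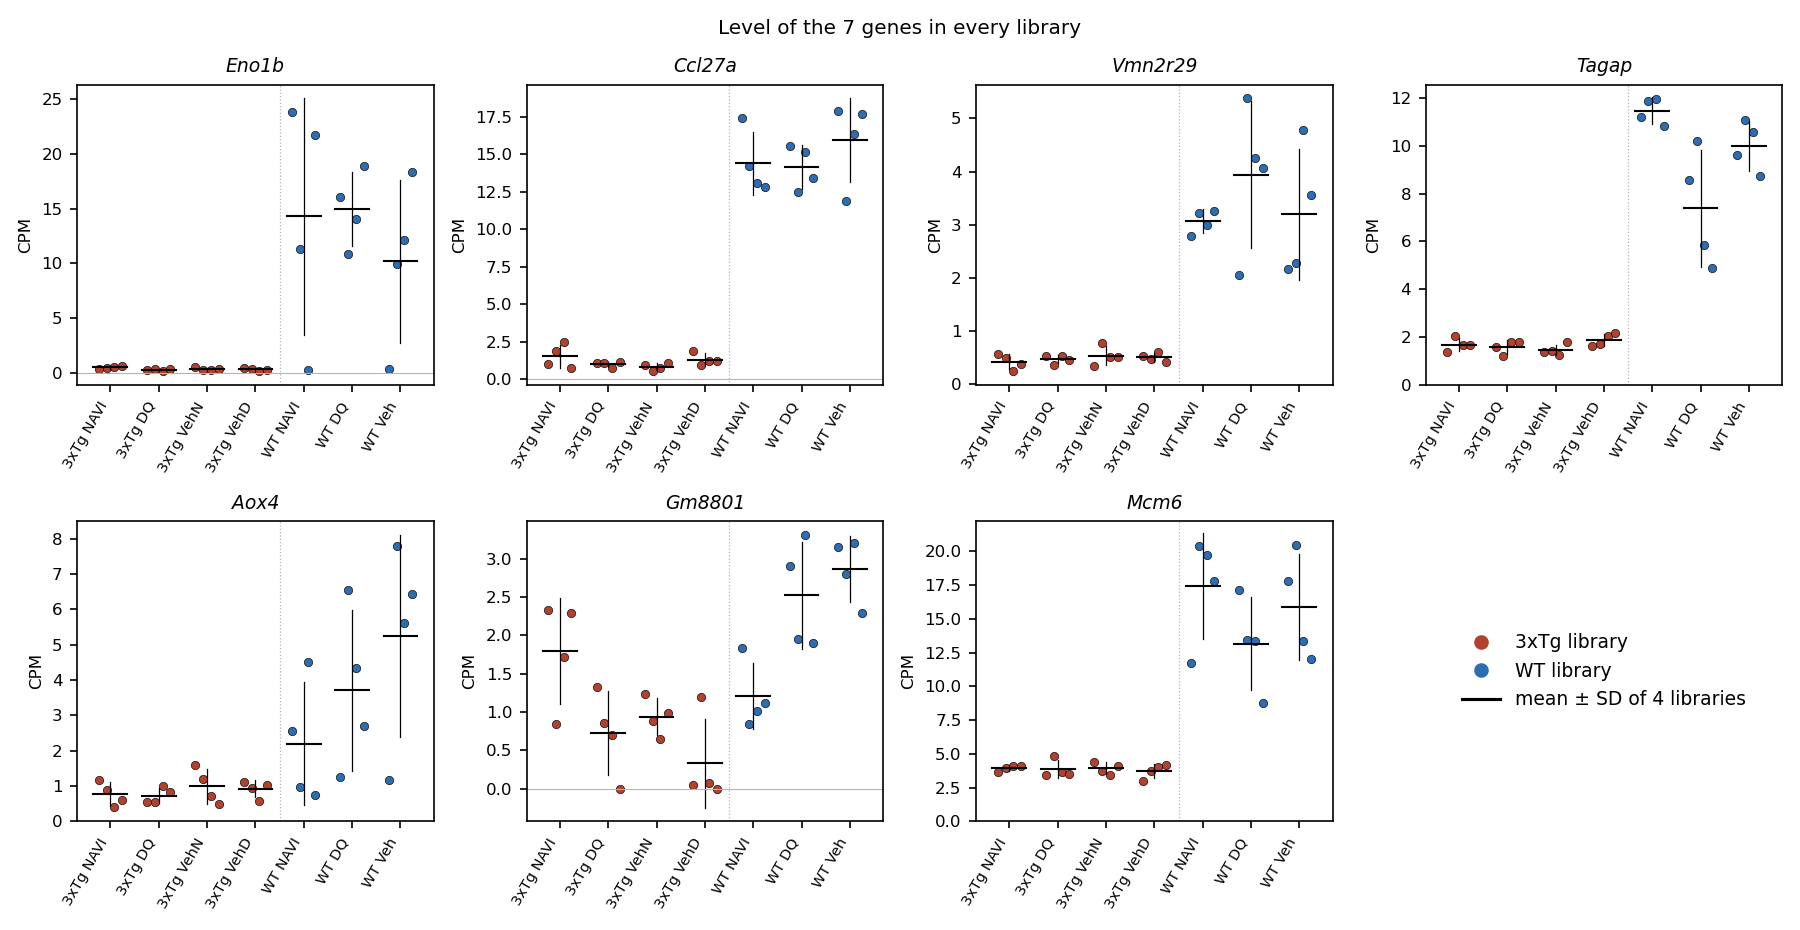
CPM (linear axis) of each of the 7 genes in every library. Points are single libraries, horizontal bars are means of 4 libraries and vertical lines are ±1 SD. The 3xTg points of Ccl27a, Vmn2r29, Tagap and Mcm6 all sit below the WT points, while single WT libraries of Eno1b and Aox4 and most of Gm8801 reach into the 3xTg range.

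With NAVI, 5 of the 7 genes were lower in 3xTg than in WT at an adjusted p under 0.05 (edgeR quasi-likelihood test), where 2.69% of all genes tested were called lower. With DQ, 6 of the 7 were lower, against a background of 1.37%. Over both drugs together, from 8 3xTg and 8 WT libraries, 6 of the 7 were lower, against a background of 3.4% lower and 4% higher. Gm8801 was the gene not called over both drugs. Differences are given as log2 of 3xTg over WT with their standard error (SE).

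**Figure D2:**
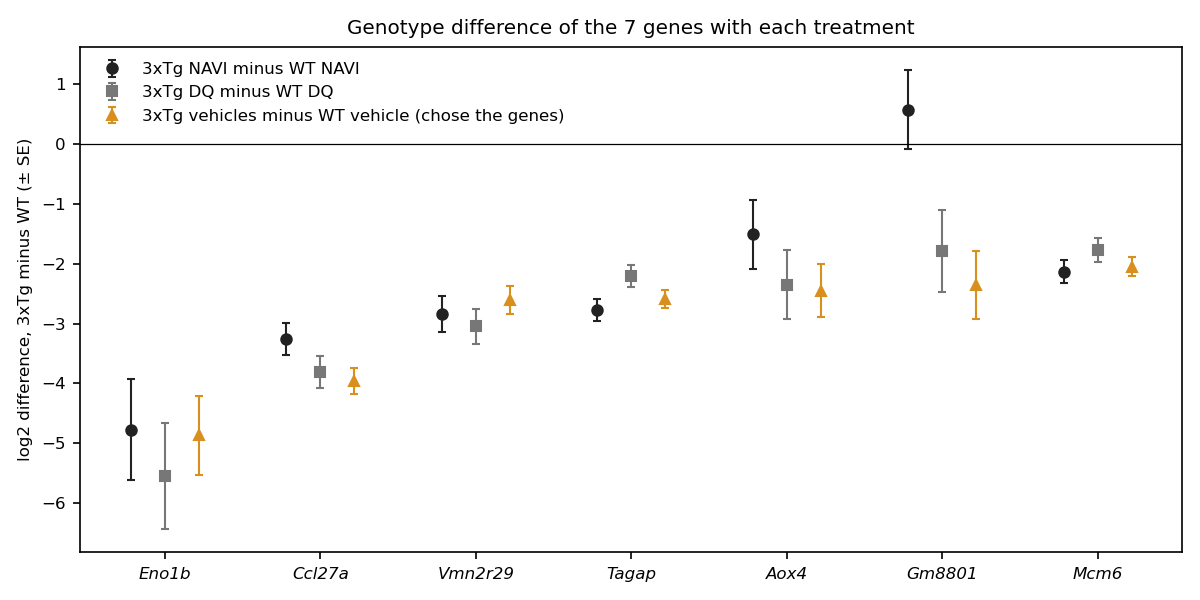
Log2 difference of 3xTg minus WT (± SE, from 1 edgeR fit of 28 libraries) for each gene with NAVI, with DQ and with vehicle; the vehicle values chose the genes. Gm8801 is the gene whose sign differs, at 0.57 with NAVI and -1.79 with DQ.

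Eno1b had the widest gap between the genotypes. In 3xTg libraries it stood at 0.409, 0.452, 0.520 and 0.692 CPM with NAVI and at 0.298, 0.370, 0.174 and 0.410 CPM with DQ. In WT libraries it stood at 23.8, 11.3, 0.305 and 21.7 CPM with NAVI and at 16.1, 10.8, 14.1 and 18.9 CPM with DQ. Replicate 3 of the WT NAVI group, with 15 counts, lay inside the 3xTg range, and the other 7 drug-treated WT libraries lay above every 3xTg library. Over both drugs the difference was -5.16 (SE 0.612), or 35.8-fold lower in 3xTg (edgeR adjusted p = 3.29e-06). With NAVI alone it was -4.77 (SE 0.841, adjusted p = 0.00114), but did not pass with limma-voom (-3.89, adjusted p = 0.184). With DQ alone it was -5.55 (SE 0.890, edgeR adjusted p = 5.91e-04). With vehicle, Eno1b stood at 0.205 to 0.528 CPM in the 8 3xTg libraries and at 0.386, 9.90, 12.1 and 18.3 CPM in the WT libraries. Replicate 1 of WT Veh, with 17 counts, was the second WT library at the 3xTg level. Of the 12 WT libraries, 10 thus stood at 9.90 CPM or above and 2 lay within the 3xTg range, with none in between.

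Of the 100-base stretches of Eno1b transcripts, 74.7% also occur in transcripts of other genes, 63.6% in Eno1 and 56.3% in the pseudogene Gm4735. Summed with the counts of Eno1, the difference of Eno1b was smaller, at -2.89 over both drugs (edgeR adjusted p = 3.44e-05), -2.67 with NAVI (adjusted p = 0.00652), -3.12 with DQ (adjusted p = 0.00296) and -2.93 with vehicle. Eno1 itself carried few counts, 0.735 ± 0.272 CPM per kb in 3xTg libraries and 0.785 ± 0.296 CPM per kb in WT libraries (SD, n = 16 and 12). The rule for reads that match both Eno1 and Eno1b is not stated, and its part in these counts and their sum was not tested. Eno2, the neuronal enolase, stood at 301 CPM per kb in 3xTg and 332 CPM per kb in WT. Over both drugs, 0 of the 4 other enolases tested and 0 of 15 glycolysis genes were called with edgeR. At an unadjusted p under 0.05 these counts were 0 enolases and 4 glycolysis genes, of which 3 were lower. DESeq2 called 0 enolases and 1 glycolysis gene, and limma-voom called 0 and 2, all lower. With vehicle, Eno2 was lower in 3xTg (-0.23, edgeR adjusted p = 0.0148). The muscle phosphoglycerate mutase Pgam2 (log2 -0.86) and the lactate dehydrogenase subunit Ldha (-0.35) were lower too, with edgeR adjusted p of 3.56e-04 and 3.97e-04.

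Ccl27a was low in every 3xTg library. It stood at 0.997, 1.87, 2.45 and 0.739 CPM with NAVI and at 1.05, 1.09, 0.756 and 1.11 CPM with DQ in 3xTg libraries. In WT libraries it stood at 17.4, 14.2, 13.1 and 12.8 CPM with NAVI and at 15.6, 12.5, 15.1 and 13.4 CPM with DQ. No 3xTg library overlapped a WT library, and the lowest WT value was several times the highest 3xTg value. The difference was -3.26 (SE 0.263) with NAVI and -3.81 (SE 0.273) with DQ, with edgeR adjusted p of 7.37e-09 and 1.29e-09. With vehicle, the 3xTg libraries spanned 0.522 to 1.89 CPM and the WT libraries 11.9 to 17.9 CPM. Counts never reached 0 in 3xTg, where the lowest library held 23.

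Ccl27a has a nearly identical copy, Ccl27b, on the same chromosome. Over an aligned coding stretch of 289 bases the 2 genes differ at 3 bases, an identity of 98.96% (GENCODE M21 transcripts, GRCm38). Of the 100-base stretches of Ccl27a transcripts, 26.5% also occur in transcripts of other genes, 15.8% in Gm20878 and 4.38% in Ccl27b. The stretch below is shown because within it only the capital letters separate the 2 genes. It lies at chr4:41769518-41769607 on the minus strand for Ccl27a and at chr4:42655868-42655957 on the plus strand for Ccl27b.
Ccl27a: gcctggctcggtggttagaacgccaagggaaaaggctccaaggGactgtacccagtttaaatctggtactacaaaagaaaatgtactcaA
Ccl27b: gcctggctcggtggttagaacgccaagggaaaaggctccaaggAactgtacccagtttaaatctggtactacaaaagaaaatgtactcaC
Ccl27b had 0 counts in all 28 libraries, as did the annotated copies Gm13306, Gm13308 and Gm2506. A total of 0 counts over 28 libraries allows a level of up to 0.00248 CPM, for counting error only and for reads that the authors assigned to 1 gene. The sources used here do not say how reads that match several genes were counted. The receptor gene Ccr10 differed by 0.63 (SE 0.337) and Ccl28, the other ligand of CCR10, by -0.34 (SE 0.470), neither past the threshold (edgeR adjusted p of 0.315 and 0.771). Among 12 other genes of the locus and the chemokine axis tested, 1 was higher and 1 was lower. These were Dnaic1, a ciliary dynein gene (0.49, edgeR adjusted p = 0.0143), and Ccl19, a chemokine of lymph node homing (-1.35, adjusted p = 0.00951). Ccl19 held 2 to 15 counts per drug-treated 3xTg library and 8 to 22 per drug-treated WT library. With NAVI alone it was not called (-0.65, edgeR adjusted p = 0.318). With vehicle neither Dnaic1 (0.16, edgeR adjusted p = 0.486) nor Ccl19 (-0.67, adjusted p = 0.205) was called.

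Vmn2r29 had few counts in either genotype, 8 to 34 per library in 3xTg and 94 to 219 in WT. In 3xTg libraries it stood at 0.562, 0.495, 0.245 and 0.382 CPM with NAVI and at 0.536, 0.370, 0.523 and 0.459 CPM with DQ. WT libraries held 2.79, 3.23, 2.99 and 3.26 CPM with NAVI and 2.06, 5.38, 4.25 and 4.07 CPM with DQ. The genotypes did not overlap, and the spread in WT was wider with DQ than with NAVI. Over both drugs the difference was -2.95 (SE 0.211), or 7.70-fold lower in 3xTg (edgeR adjusted p = 3.20e-10). With vehicle, 3xTg libraries spanned 0.344 to 0.771 CPM and WT libraries 2.16 to 4.78 CPM.

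Of the 100-base stretches of Vmn2r29 transcripts, 73.9% recur in transcripts of 46 other genes. The largest share was 43.1%, with Gm45844, and 32.8% were shared with the receptor gene Vmn2r46; how the counts divide among the copies was not tested. Of 5 genes for partners of vomeronasal and olfactory receptors tested, 1 was higher and 2 were lower. B2m, the light chain of MHC class I, was higher by 0.56 (edgeR adjusted p = 4.23e-04). The receptor transport genes Rtp1 (-1.04, adjusted p = 0.00881) and Rtp2 (-0.99, adjusted p = 0.0139) were lower. Zfp772, a zinc finger gene that starts 10.9 kb from Vmn2r29, was lower as well, with log2 differences of -0.70 over both drugs (edgeR adjusted p = 9.30e-05) and -0.66 with vehicle (adjusted p = 0.00155).

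Tagap was lower in every 3xTg library, while its copy Tagap1 was higher. In 3xTg libraries Tagap stood at 1.35, 2.02, 1.65 and 1.67 CPM with NAVI and at 1.57, 1.20, 1.80 and 1.81 CPM with DQ. In WT libraries it stood at 11.2, 11.9, 11.97 and 10.8 CPM with NAVI and at 8.55, 10.2, 5.85 and 4.89 CPM with DQ. The WT values were close together with NAVI, whereas replicates 3 and 4 of WT DQ lay below all other WT libraries. Over both drugs the difference was -2.49 (SE 0.131), or 5.62-fold lower in 3xTg (edgeR adjusted p = 7.79e-13). With vehicle, 3xTg libraries spanned 1.26 to 2.16 CPM and WT libraries 8.72 to 11.1 CPM.

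Tagap1 lies less than 1 Mb away on chromosome 17 and is a shorter copy of Tagap. The coding sequences of 2142 and 1515 bases align without gaps over 1361 bases, with 6 differing bases and an identity of 99.56%. The stretch below is shown because its capitals are again the bases that separate the copies; it lies in exon 10 at chr17:7933019-7933108 on the plus strand for Tagap and in exon 4 at chr17:6956799-6956888 on the minus strand for Tagap1 (GRCm38).
Tagap: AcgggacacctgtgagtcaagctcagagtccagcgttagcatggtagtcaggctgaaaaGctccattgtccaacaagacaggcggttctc
Tagap1: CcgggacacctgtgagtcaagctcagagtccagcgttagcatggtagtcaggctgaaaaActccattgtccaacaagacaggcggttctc
Tagap1 averaged 27.4 ± 1.24 CPM in 3xTg and 12.4 ± 3.30 CPM in WT libraries (SD, n = 16 and 12). Its difference over both drugs was 1.09 (SE 0.0987, edgeR adjusted p = 3.15e-08), opposite in sign to that of Tagap, and with vehicle 1.27 (adjusted p = 2.46e-07). Tagap made up 4.02% to 7.36% of the summed counts of the 2 genes in 3xTg libraries and 21.2% to 55.1% in WT libraries. Summed, the copies averaged 29.05 ± 1.22 CPM in 3xTg and 21.97 ± 1.84 CPM in WT (SD). The summed level was higher in 3xTg by 0.36 over both drugs (edgeR adjusted p = 3.28e-05), so the direction seen for Tagap alone reversed when its copy was added.

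Both genes stood apart in 2 WT libraries. In replicates 3 and 4 of WT DQ, Tagap took 22.6% and 21.2% of the summed counts, and in the other 10 WT libraries it took between 42.7% and 55.1%. The same 2 libraries had the lowest WT counts of Ccr6, 39 and 27, and the highest WT counts of Rnaset2b, 8 and 4. For all 4 genes these libraries thus lay on the 3xTg side of the other WT libraries, although Tagap and Ccr6 stayed above every 3xTg library. For Rnaset2b, replicate 3, at 0.207 CPM, lay inside the 3xTg range of 0.172 to 0.528 CPM.

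**Figure D3:**
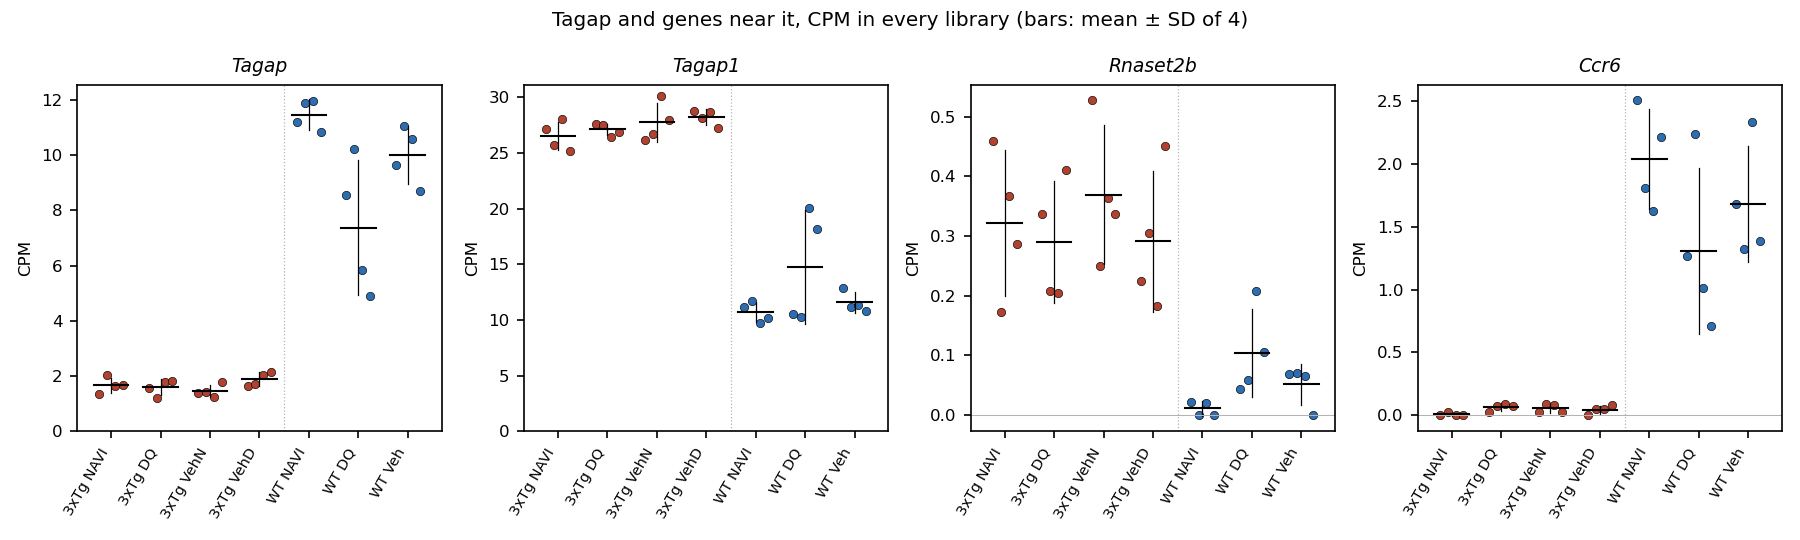
CPM (linear axis) of Tagap and of 3 genes near it on chromosome 17 in every library; red points are 3xTg libraries, blue points are WT libraries, and bars show the mean ± SD of 4. Tagap and Ccr6 are lower and Tagap1 and Rnaset2b higher in 3xTg, and replicates 3 and 4 of WT DQ lie towards the 3xTg points, with replicate 3 inside the 3xTg range for Rnaset2b.

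Of the 20 tested genes nearest to Tagap on the map, 10 on each side, 6 were higher and 2 lower in 3xTg over both drugs, which is 40%, against 9.17% of the 120 neighbours of the other genes; of all genes tested 4% were higher and 3.4% lower. With vehicle the counts were 6 higher and 5 lower. Besides Tagap1, the smallest p-values were those of Ccr6 and Gm16702. Ccr6, a chemokine receptor gene that starts 310 kb away, had 0 to 3 counts per drug-treated 3xTg library and 27 to 115 per drug-treated WT library. Its 11 counts over 8 3xTg libraries against 588 over 8 WT libraries gave a fitted difference of -6.10 (SE 0.389, edgeR adjusted p = 3.51e-11). Gm16702 was higher by 1.45 (SE 0.164, adjusted p = 1.51e-06), with 6.06 ± 1.39 CPM in 3xTg and 2.48 ± 0.811 CPM in WT libraries. Rnaset2b, a ribonuclease gene named here after its values were seen, had 7 to 23 counts in 3xTg and 0 to 8 in WT libraries. Its difference over both drugs was 3.03 (edgeR adjusted p = 3.43e-05). With NAVI the difference was 4.58 (edgeR adjusted p = 1.85e-04), where the WT libraries held 0 to 1 counts. With DQ it was not called (1.48, edgeR adjusted p = 0.113).

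T cell markers, counted because Tagap is named for T cells, summed to 6.69 to 10.7 CPM in 3xTg and 7.97 to 11.8 CPM in WT libraries. Among 8 T cell markers tested, Cd3g (2.20, edgeR adjusted p = 0.0138) and Cd8a (1.90, adjusted p = 0.00637) were higher and 0 were lower, where 3 were lower at an unadjusted p under 0.05 and DESeq2 and limma-voom called 0 lower. The summed ranges overlapped widely, unlike those of Tagap.

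Aox4 varied strongly among WT libraries. In 3xTg libraries it stood at 1.18, 0.883, 0.398 and 0.596 CPM with NAVI and at 0.536, 0.554, 0.989 and 0.845 CPM with DQ. WT libraries held 2.55, 0.978, 4.52 and 0.738 CPM with NAVI and 1.25, 6.56, 4.35 and 2.69 CPM with DQ. Replicates 2 and 4 of WT NAVI lay within the drug-treated 3xTg range and the other 6 lay above it. The difference was -1.51 (SE 0.574, edgeR adjusted p = 0.100) with NAVI, which did not pass, and -2.35 (SE 0.579, adjusted p = 0.0230) with DQ. The call with DQ was lost without any 1 of replicates 1, 2 and 4 of 3xTg DQ and replicates 2 and 3 of WT DQ (edgeR adjusted p 0.062 to 0.0837). Over both drugs it was -1.93 (SE 0.407, adjusted p = 0.00316), but -1.43 with limma-voom (adjusted p = 0.0606). Summed with its family members Aox1, Aox2 and Aox3, which share no 100-base stretch with it, Aox4 was not called. The sum differed by -0.26 over both drugs (edgeR adjusted p = 0.357), by -0.54 with DQ (adjusted p = 0.176) and by -0.08 with vehicle. Aox1 had a higher level than Aox4 in both genotypes, so this sum cannot decide the call of Aox4 alone. With vehicle, 3xTg libraries spanned 0.481 to 1.58 CPM and WT libraries held 1.16, 7.79, 5.61 and 6.43 CPM.

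Aox4 sits in a cluster of aldehyde oxidase genes, and 2.76% of its 100-base stretches recur elsewhere, all in Gm15759. Aox1 stood at 2.61 ± 0.542 CPM per kb in 3xTg and 2.41 ± 0.282 CPM per kb in WT libraries (SD, n = 16 and 12). Aox3 stood at 0.789 ± 0.435 CPM per kb in 3xTg and 0.714 ± 0.318 CPM per kb in WT. None of 9 other genes of aldehyde oxidases, xanthine dehydrogenase and molybdenum cofactor synthesis was called over both drugs with edgeR, DESeq2 or limma-voom, and 1, Mocs2, was lower at an unadjusted p under 0.05. None of the 20 map neighbours of Aox4 was called with any of the 3 tools or at an unadjusted p under 0.05.

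Gm8801 was called with neither drug. In 3xTg libraries it stood at 2.33, 0.840, 1.71 and 2.29 CPM with NAVI and at 1.33, 0.855, 0.698 and 0 CPM with DQ. WT libraries held 1.83, 0.848, 1.02 and 1.12 CPM with NAVI and 2.91, 1.96, 3.31 and 1.90 CPM with DQ. The genotypes overlapped with NAVI, while with DQ every 3xTg library lay below every WT library. That separation is of 4 libraries against 4, and the share of all genes separated in this way is not given here. The difference was 0.57 (SE 0.661, edgeR adjusted p = 0.582) with NAVI and -1.79 (SE 0.685, adjusted p = 0.173) with DQ, on opposite sides of 0. With limma-voom the DQ difference was -3.45 and passed (adjusted p = 0.0100). The change of that difference between the drugs was 2.36 (SE 0.951, adjusted p = 0.158). With vehicle, the 3xTg VehN libraries held 1.24, 0.885, 0.650 and 0.985 CPM, the 3xTg VehD libraries 0.0498, 1.20, 0.0683 and 0 CPM, and the WT libraries 3.16, 2.81, 3.21 and 2.29 CPM. Without replicate 2 of VehD the vehicle difference, -2.36 in the full fit, was -3.89. No 100-base stretch of its 1 annotated transcript occurs in another gene, and of its 20 map neighbours 1 was higher, Ppp1r18 (0.36, edgeR adjusted p = 0.0137), and 0 were lower over both drugs; 1 was lower at an unadjusted p under 0.05, and DESeq2 and limma-voom called 0 lower. With vehicle 0 were higher and 4 lower, Tubb5 (-0.26), Gnl1 (-0.33), A930015D03Rik (-0.63) and H2-Bl (-1.67), with edgeR adjusted p from 0.00598 to 0.0354.

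Mcm6 had the highest counts of the 7 in 3xTg, 120 to 212 per library, and 332 to 1104 in WT. In 3xTg libraries it stood at 3.68, 3.94, 4.13 and 4.13 CPM with NAVI and at 3.44, 4.85, 3.66 and 3.48 CPM with DQ. In WT libraries it stood at 11.8, 20.4, 19.7 and 17.8 CPM with NAVI and at 17.1, 13.4, 13.3 and 8.77 CPM with DQ. The genotypes did not overlap, and the 3xTg libraries spread less than the WT libraries. The difference was -2.13 (SE 0.195) with NAVI and -1.77 (SE 0.194) with DQ, with edgeR adjusted p of 7.52e-08 and 1.85e-06. Over both drugs it was -1.95 (SE 0.137), or 3.87-fold lower in 3xTg (adjusted p = 2.24e-10). With vehicle, 3xTg libraries spanned 2.99 to 4.43 CPM and WT libraries 11.99 to 20.4 CPM.

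The other subunits of the helicase had differences far smaller than that of Mcm6. Mcm2, Mcm3, Mcm5 and Mcm7 had log2 differences of 0.07, 0.08, 0.10 and -0.05 over both drugs, with edgeR adjusted p from 0.619 to 0.778. Mcm4 was higher by 0.21 (SE 0.0561, edgeR adjusted p = 0.0201). Of the 10 other MCM family genes tested, Mcm4 was the 1 called higher and 0 were called lower, with 1 lower at an unadjusted p under 0.05, Mcm8; DESeq2 called 1 lower and limma-voom 0. With vehicle, Mcm4 was higher (0.22, edgeR adjusted p = 0.0356) and Mcm8 lower (-0.44, adjusted p = 0.0204). Mcm6 stood at 0.889 ± 0.103 CPM per kb in 3xTg libraries and 3.56 ± 0.887 CPM per kb in WT libraries (SD, n = 16 and 12). Mcm7 stood at 3.78 ± 0.324 CPM per kb in 3xTg and 3.93 ± 0.345 CPM per kb in WT. Mcm4 averaged 5.04 CPM per kb in 3xTg and 4.35 CPM per kb in WT. Mcm2, Mcm3 and Mcm5 averaged 1.32, 1.46 and 1.33 CPM per kb in 3xTg and 1.32, 1.43 and 1.37 CPM per kb in WT. These means include the vehicle libraries that chose Mcm6, so its place among the subunits is a description. By these means Mcm6 lay below all the other subunits in 3xTg. In WT it lay above Mcm2, Mcm3 and Mcm5 and below Mcm4 and Mcm7.

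**Figure D4:**
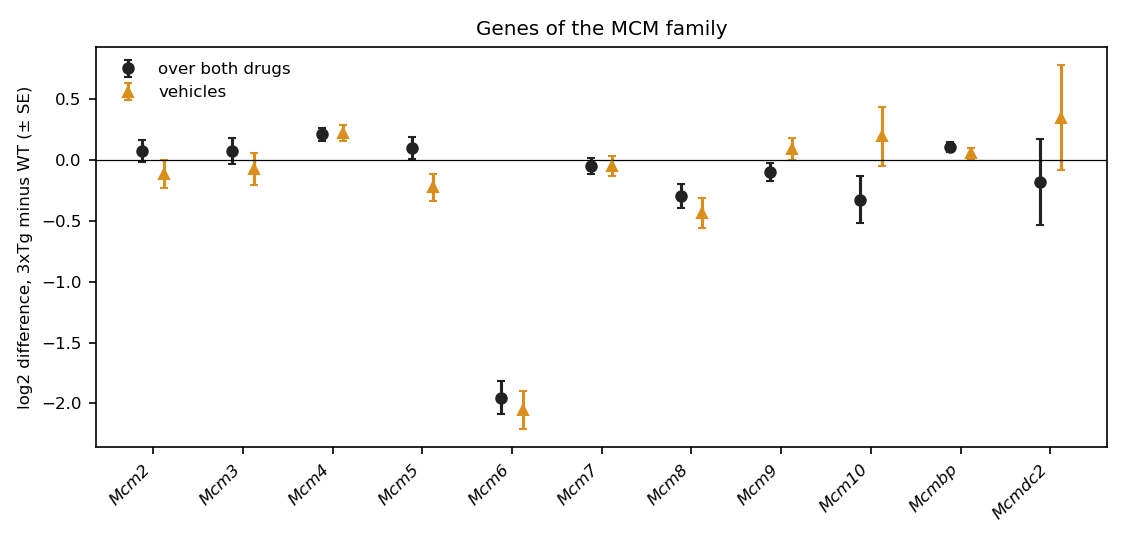
Log2 difference of 3xTg minus WT (± SE) for 11 genes of the MCM family, over both drugs (circles) and with vehicle (triangles; for Mcm6 these values chose the gene). Mcm6 stands near -2 and the other 10 genes lie between -0.44 and 0.35.

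Of 23 genes for replication licensing and fork proteins, 3 were lower and 0 were higher over both drugs (edgeR), with 2 higher at an unadjusted p under 0.05 and 0 higher with DESeq2 or limma-voom. Of all genes tested, 3.4% were lower and 4% higher. The 3 lower genes were the licensing inhibitor Gmnn (-0.41, adjusted p = 0.00246), the sliding clamp Pcna (-0.28, adjusted p = 7.91e-04) and the single-strand binding subunit Rpa2 (-0.19, adjusted p = 0.0399). With vehicle 2 of the list were higher, Pole (0.40) and Gins4 (0.33), and 3 were lower, Pcna (-0.37), Rpa2 (-0.22) and Pold1 (-0.58). Their edgeR adjusted p ran from 5.22e-04 to 0.0367, and Gmnn was not called with vehicle (-0.18, adjusted p = 0.222). Markers of proliferating cells summed to 48.0 to 68.6 CPM in 3xTg and 48.7 to 63.2 CPM in WT libraries, and 1 of 14 was called, the neuroblast factor Neurod1 (-0.28, edgeR adjusted p = 0.0305). No 100-base stretch of Mcm6 transcripts occurs in another gene. Of its 20 map neighbours, 2 were higher and 1 lower. Mgat5, a glycosyltransferase gene, was higher by 0.30 and the chemokine receptor gene Cxcr4 by 0.57 (edgeR adjusted p = 4.23e-04 and 0.00156). Lct, the lactase gene, which starts 46.8 kb away, was lower by 0.44 on the log2 scale (adjusted p = 0.00895).

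The 300 bases around the start of Mcm6 are shown because MCM genes are textbook targets of E2F factors, which switch on replication genes; they come from RefSeq (GRCm38.p6, chr1:128359656-128359955, minus strand), from 250 bases before the start to 50 after. Capitals mark the letters searched on both strands: the E2F-type letters TTTCCCGC, TTTCGCGC, TTTGCCGC and TTTGGCGC, CCAAT, and GGGCGG. The letters of the cAMP response element, TGACGTCA, were searched as well.
Mcm6: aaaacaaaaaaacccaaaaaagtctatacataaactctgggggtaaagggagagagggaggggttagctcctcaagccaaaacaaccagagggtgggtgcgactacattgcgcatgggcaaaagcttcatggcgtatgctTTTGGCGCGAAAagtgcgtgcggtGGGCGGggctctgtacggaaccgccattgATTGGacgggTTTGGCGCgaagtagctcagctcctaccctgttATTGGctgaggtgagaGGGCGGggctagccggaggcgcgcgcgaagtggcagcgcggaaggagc
The E2F-type letters occur 3 times, with a pair overlapping on opposite strands, and are found in 2.26% of 32851 mouse promoter windows of this length. CCAAT, read here on the other strand, is found in 37.4% and GGGCGG in 35.7%. The cAMP response element letters, found in 1.79%, are not in the Mcm6 window. These matches are letters in a reference sequence and not measured sites. A promoter entry was found for 5 of the 7 genes.

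**Figure D5:**
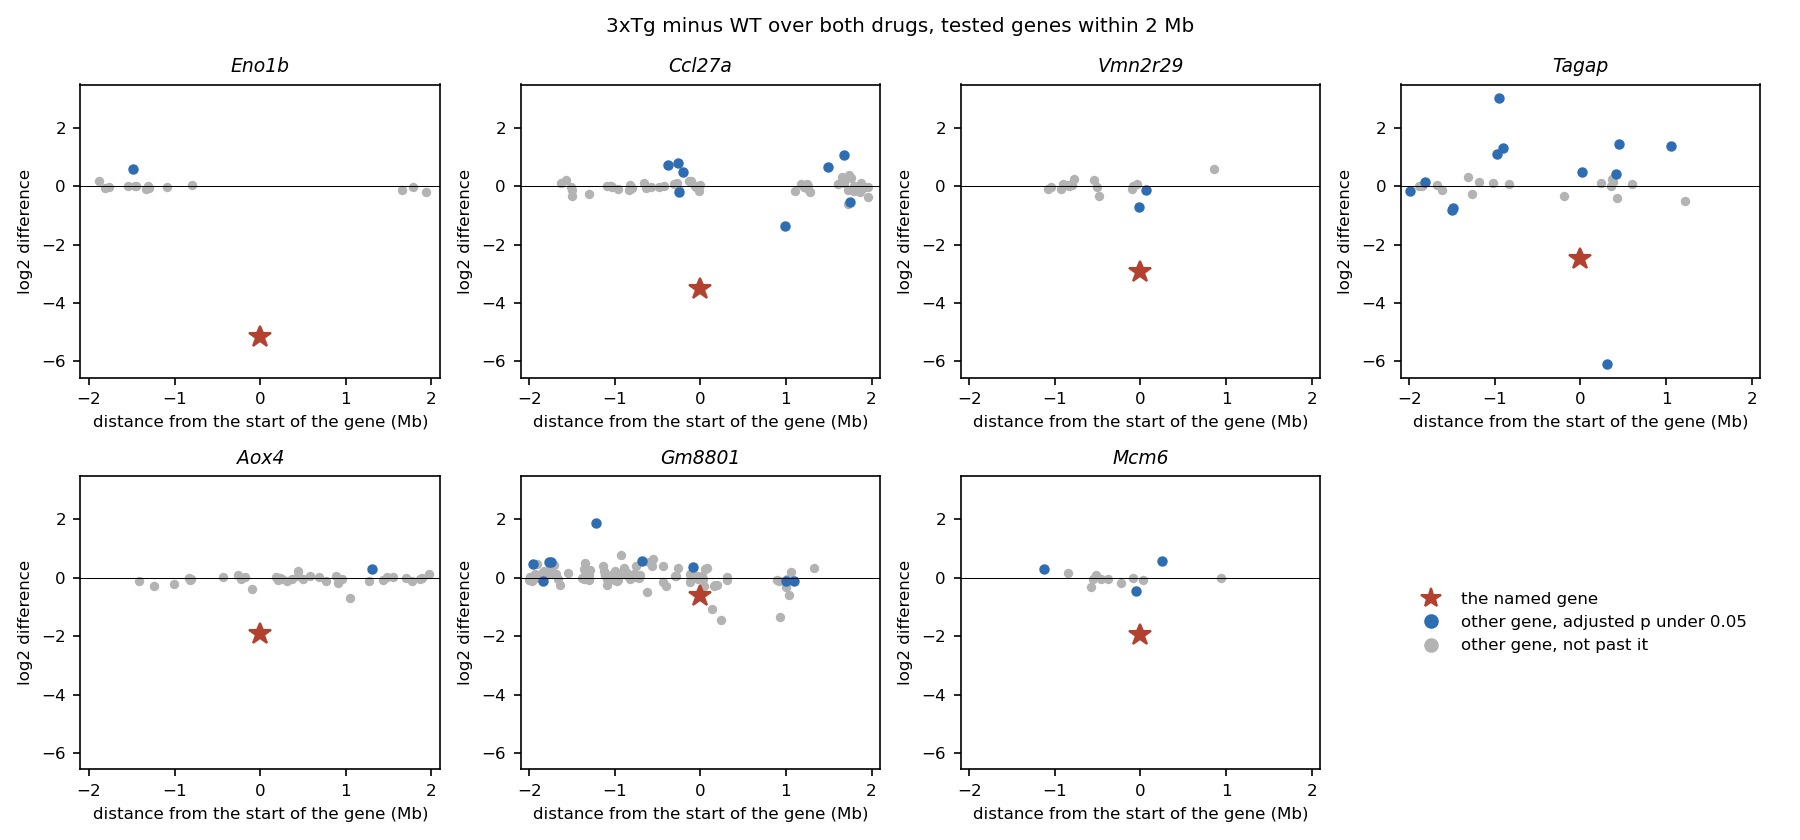
Log2 difference of 3xTg minus WT over both drugs against distance from the start of each gene (Mb, up to 2 on either side); stars are the 7 genes, blue points other genes at an adjusted p under 0.05 and grey points other genes tested. Blue points are most frequent around Tagap, where Ccr6 lies at -6.10, and 1 blue point each stands in the panels of Eno1b and Aox4.

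Around all 7 genes together, 12 of 140 map neighbours were higher and 7 were lower over both drugs, where 4% of all genes tested were higher and 3.4% lower; 6 of the 12 and 2 of the 7 lie around Tagap. With vehicle, 11 were higher and 15 lower, where 5.68% of all genes tested were higher and 7.4% lower. The median absolute difference over both drugs was 0.33 for the neighbours of Tagap and 0.09 for all genes tested. Around Eno1b 1 of 20 was called, Ticam2, an adaptor of Toll-like receptor signalling, at 0.59 (edgeR adjusted p = 0.0171). Around Ccl27a 2 were higher and 2 lower, the smallest p being that of Fam219a (-0.20, adjusted p = 0.00355).

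Between the drugs the 7 genes showed no called difference. In 3xTg, NAVI against DQ gave 0 called genes of all tested (0% with edgeR, 2367 at an unadjusted p under 0.05, 3 with DESeq2 and 8 with limma-voom), and 0 of the 7 passed even unadjusted. In WT, NAVI against DQ gave 0.0672% of genes called and 0 of the 7, with 2 of them at an unadjusted p under 0.05. These were Tagap, with 0.64 for NAVI minus DQ (SE 0.169, adjusted p = 0.256; called without replicate 2 of WT DQ), and Mcm6, with 0.40 (SE 0.184, adjusted p = 0.506). A genotype difference that itself differed between NAVI and DQ was called for 0.0122% of genes and for 0 of the 7. Tagap (-0.56, SE 0.256, adjusted p = 0.177) and Gm8801 passed unadjusted. DESeq2 called 0 of the 7 in each of these 3 comparisons, and limma-voom called Tagap in WT and both Tagap and Gm8801 for the difference between drugs.

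Against vehicle the values are descriptions, since those libraries chose the genes. In 3xTg, NAVI minus VehN ranged from -0.37 (Aox4) to 0.93 (Gm8801), and DQ minus VehD from -0.36 (Ccl27a) to 1.14 (Gm8801). In WT, NAVI minus Veh ranged from -1.25 (Gm8801 and Aox4) to 0.49 (Eno1b), and DQ minus Veh from -0.50 (Aox4) to 0.56 (Eno1b). The 2 vehicles of 3xTg differed most for Gm8801, by 1.49 (SE 0.754) for VehN minus VehD.

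In the vehicle libraries that chose them, the differences of the 7 genes were -4.86 for Eno1b, -3.96 for Ccl27a, -2.61 for Vmn2r29, -2.59 for Tagap, -2.45 for Aox4, -2.36 for Gm8801 and -2.05 for Mcm6. This order is of called genes with a mean log2 CPM of 0 or above. Eno1b held rank 2 in it, so a gene that is not among the 7 and is not named here fell further. Among called genes below that level Ccr6, at -5.02, had a larger fall than any of the 7. Just outside the choice lay Pcdhga11 (-2.08), which ranks between Gm8801 and Mcm6 but is not among the 7, then Samd11 (-2.02), D630041G03Rik (-1.98), Gm1976 (-1.93), Pla2g4e (-1.83) and Igfn1 (-1.75). Members and near neighbours in this order are therefore separated by small steps.

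Correlations among the 7 genes within WT libraries were moderate or weak. Pearson's r of their log2 CPM, with group means removed, ran from -0.49 (Vmn2r29 with Mcm6) to 0.56 (Tagap with Mcm6) over 12 WT libraries that share tissue and preparation. The WT libraries that were low also differed by gene: replicate 1 of Veh and replicate 3 of NAVI for Eno1b, replicates 3 and 4 of DQ for Tagap, and replicate 1 of Veh, replicates 2 and 4 of NAVI and replicate 1 of DQ for Aox4. By the same measure the gene most like Ccl27a was Galt (r = 0.96), which starts 14.0 kb from it, followed by Cox10 and Pfkm (both 0.94). The gene most like Aox4 was Myl1 (0.94), which is on the same chromosome. The nearest for Vmn2r29, Tagap, Gm8801 and Mcm6 were Mtmr4 (0.94), A330076H08Rik (0.97), Mmp28 (0.91) and Zfp719 (0.95).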

How the data were processed

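Poly(A) libraries of hippocampal RNA were prepared with a stranded kit and sequenced as paired reads, per the labels' protocols. The authors deposited 1 table of unnormalized counts, with a row for each gene symbol; STAR, Subread, featureCounts and mm10 are named in the submitters' processing notes, without versions. The sources used here name no strand setting, annotation or rule for reads that match several genes. No pair of libraries in a group agreed within sampling noise (lowest chi-square per degree of freedom 12.26), and 0 columns were left unused.

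Counts of 28 libraries were fitted with edgeR 4.0.16 in R 4.3.3 (quasi-likelihood test, TMM, filterByExpr, 1 coefficient per group), and 7693 genes were removed by the filter. P-values are two-sided and Benjamini-Hochberg adjusted over all genes tested in a comparison, with calls under 0.05. SE is the log2 difference over the square root of F. CPM used TMM factors. CPM per kb divided them by the length of the longest annotated transcript. Floors are 3 counts and cover counting error only. On simulated data for the comparison over both drugs (16270 genes left after the filter), 74% of 2-fold and 98% of 4-fold changes were recovered, and 6.95% of calls were false.

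Listed genes were named where their p over both drugs was among the 4 smallest of the list, map neighbours where it was among the 3 smallest; lists also show partners by role. The 7 genes and all lists were chosen with earlier results of these data known. Alternatives were RLE and upper-quartile factors, DESeq2 1.42.0, limma-voom (limma 3.58.1), other filters, fits of fewer groups, a replicate block, each library left out, and members summed with copies or, for Aox4, with family members. Some items are not reported here.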

Additional observations from a re-analysis of the deposited data

Results flagged for a closer look

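Dixon's test at 95% was applied to each of the 7 genes in each group of 4 libraries. Of 49 sets of 4, 3 held a library that stood apart, and chance alone gives about 1 in 20, or 2.45. Ccl27a was low in replicate 3 of the 3xTg DQ group, at 0.756 CPM, where the other 3 libraries held 1.05 to 1.11 CPM. Gm8801 was high in replicate 2 of the 3xTg VehD group, at 1.20 CPM, where the other 3 held 0 to 0.0683 CPM. Mcm6 was high in replicate 2 of the 3xTg DQ group, at 4.85 CPM, where the other 3 held 3.44 to 3.66 CPM. The Ccl27a and Mcm6 libraries stayed below every WT library.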

How the results depend on the processing

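Counts of the 7 genes called lower in 3xTg stayed within 1.5 times of their values in all alternatives run. Leaving out 1 library gave 5 to 5 with NAVI, 5 to 6 with DQ and 6 to 6 over both drugs. When members were summed with copies or family members, only Eno1b, Ccl27a, Vmn2r29 and Mcm6 stayed called lower. This held with NAVI, with DQ and over both drugs, so Tagap and Aox4 dropped out of the count over both drugs. Unlike Tagap and its copy, Aox4 was summed with family members that share no stretch of read length with it. Aox1 alone averaged 2.61 CPM per kb in 3xTg and 2.41 CPM per kb in WT libraries, against 0.171 and 0.748 for Aox4. The Aox4 sum therefore cannot show whether its call depends on how reads were assigned. Replicate numbers did not pair libraries (correlations of same-numbered libraries -0.28 to 0.22), and the fit with a replicate block gave 5, 6 and 6, and 0 between the drugs in either genotype and for the difference between drugs. With limma-voom, 1 gene was called between NAVI and DQ in WT and 2 for the difference between drugs; leaving out 1 library gave 0 to 1 in WT, the 1 without replicate 2 of WT DQ, Tagap. Summed with its copy, Tagap reversed, to 0.35 with NAVI, 0.37 with DQ, 0.36 over both drugs and 0.46 with vehicle, and Eno1b summed with Eno1 was -2.89 over both drugs and -2.93 with vehicle. Eno1b with NAVI was -3.89 with limma-voom (adjusted p = 0.184), and Gm8801 with DQ -3.45 (adjusted p = 0.0100). Summed with Aox1, Aox2 and Aox3, Aox4 was -0.26 over both drugs (adjusted p = 0.357) and -0.54 with DQ (adjusted p = 0.176), and alone with DQ it missed the threshold without each of replicates 1, 2 and 4 of 3xTg DQ and 2 and 3 of WT DQ (edgeR adjusted p 0.062 to 0.0837). The causes were not tested. Over both drugs 1211 genes were called in all, against 1548 with DESeq2, 1543 with limma-voom and 947 to 1296 with 1 library left out. With NAVI the 979 became 1641, 1603 and 1884 with DESeq2, limma-voom and the replicate block, and 375 without replicate 3 and 1920 without replicate 2 of 3xTg NAVI; with DQ the 500 became 1545 with limma-voom and 263 without replicate 2 of 3xTg DQ. With vehicle the 2142 became 3283 with the block, 1118 in the vehicle libraries alone, 873 without replicate 4 of WT Veh and 3482 without replicate 1 of 3xTg VehN. The 2 called for the difference between drugs became 67, 1861 and 5 with DESeq2, limma-voom and the block, 9 in the drug libraries alone and 55 without replicate 2 of WT DQ. Between NAVI and DQ in WT the 11 became 38 with DESeq2, 39 with limma-voom, 5 without replicate 2 of WT NAVI or replicate 1 of WT DQ, and 20 without replicate 2 of WT DQ. Levels of 3xTg rest on as few as 6 counts for Eno1b and 8 for Vmn2r29.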
